A study of Mus musculus with 12 samples.

Results

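The genes that flank Adcy10 on mouse chromosome 1 were examined in CD4+ T cells that lack it. Adcy10 encodes soluble adenylyl cyclase, one of the enzymes that produce cAMP, a second messenger. The 10 neighbors were taken by name: Sft2d2, Tiprl, Gpr161, Dcaf6 and Mpc2 on one side, Mpzl1, Rcsd1, Creg1, Cd247 and Pou2f1 on the other. They are the 5 nearest protein-coding genes on each side in the gene order of RefSeq GRCm38.p6, with Mpc2 and Mpzl1 directly beside Adcy10. All 10 were found among the 23991 gene IDs of the expression files. Of these 10, 9 passed the filter for testing (at least 1 FPKM, a level scaled for library size and transcript length, in at least 3 libraries), and Gpr161 did not. The neighbors serve as a check on whether the targeted locus, or DNA around it, differs between the genotypes.

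Polyadenylated RNA was profiled in 4 groups of 3 libraries: Adcy10-/- and wild-type (WT) cells in baseline medium, and Adcy10-/- and WT cells in medium with polarizing cytokines. The mice were C57BL/6 males aged 8 to 10 weeks, and CD4+ T cells of their spleens or lymph nodes were enriched by magnetic removal of other cells. Every culture lasted 18 hours, and per the labels the wells were coated with anti-CD3 (10 µg/mL). The labels then list anti-CD28 at 2 µg/mL, the cytokines IL-1β at 20, IL-6 at 25 and IL-23 at 20 ng/mL, and blocking antibodies against IFNγ and against IL-4 at 1 µg/mL, without saying which of these the baseline medium lacked. The labels say neither how the Adcy10 allele was made, nor its strain history, nor whether replicates came from separate animals. The p-values therefore measure only the spread between these samples, which may be technical.

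Genes close together on a chromosome are inherited together. A mouse line made by gene targeting can therefore keep DNA of the strain of the targeted stem cells around the altered gene, even after many crosses to another strain, and an inserted cassette can also change the output of genes beside it. Expression of neighbors is a usual check in such lines, since a difference there need not follow from loss of the targeted protein. The neighbors of Adcy10 have unrelated roles, among them mitochondrial pyruvate import (Mpc2) and T cell receptor signaling (Cd247, the CD3 zeta chain).

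In all 12 libraries Adcy10 itself was listed at 0 FPKM, so it could not check the genotype labels, whereas none of 10 genes that every cell uses was at 0 in any library. The libraries summed to 547870 to 594750 FPKM and held 9778 to 9925 genes at 1 FPKM or more. The number of reads is not given. The steps between low values put the libraries at 0.731 to 1.02 times the depth of WT baseline replicate 1. Libraries of a group correlated at 0.9936 to 0.9965 on the log scale. The 6 CD4 T cell markers examined summed to 1043 to 1432 FPKM and were present throughout. The sums of 7 myeloid markers (Lyz2, S100a8, S100a9 and others) were 15.9 to 25.6 FPKM in Adcy10-/- and 24.8 to 68.5 FPKM in WT libraries at baseline, and 21.9 to 43.5 FPKM in Adcy10-/- and 41.0 to 114 FPKM in WT libraries with cytokines. None of the 7 was at 0 in any library. The sums were mostly lower in Adcy10-/- cultures, and their part in the genotype differences given here was not tested. Over all libraries, 7 B cell markers summed to 2.02 to 52.0 FPKM and 6 markers of CD8 T and NK cells to 10.0 to 16.3 FPKM. In such mixed samples, fewer cells of a type and less RNA per cell cannot be told apart.

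The promoters of 3 neighbors are shown because these are the genes directly beside Adcy10, Mpc2 and Mpzl1, and the gene that shares a divergent start region with Mpc2, Dcaf6. Each line gives the 250 bases before the annotated start, 5′ to 3′ on the gene's own strand, from RefSeq GRCm38.p6. Capitals mark CCAAT or its reverse complement ATTGG, and the core of the cAMP response element (CRE), TGACG or CGTCA. The windows are chr1:165461010-165461259 on the plus strand for Mpc2, chr1:165460464-165460713 on the minus strand for Dcaf6 and chr1:165634542-165634791 on the minus strand for Mpzl1.
Mpc2: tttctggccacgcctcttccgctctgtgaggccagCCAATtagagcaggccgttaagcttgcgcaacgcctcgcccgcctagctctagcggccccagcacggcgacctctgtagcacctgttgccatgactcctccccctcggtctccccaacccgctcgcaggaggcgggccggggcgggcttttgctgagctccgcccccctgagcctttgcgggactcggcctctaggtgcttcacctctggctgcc
Dcaf6: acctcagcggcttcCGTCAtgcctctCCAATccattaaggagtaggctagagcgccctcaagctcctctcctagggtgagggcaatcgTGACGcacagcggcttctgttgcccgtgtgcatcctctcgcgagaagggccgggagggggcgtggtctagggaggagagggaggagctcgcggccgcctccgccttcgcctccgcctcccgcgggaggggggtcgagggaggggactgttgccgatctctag
Mpzl1: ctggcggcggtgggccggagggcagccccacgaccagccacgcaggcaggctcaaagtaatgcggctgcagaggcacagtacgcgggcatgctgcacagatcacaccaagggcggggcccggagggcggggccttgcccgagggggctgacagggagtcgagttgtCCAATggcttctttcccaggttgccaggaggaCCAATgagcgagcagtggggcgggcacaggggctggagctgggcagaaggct
Mpc2 and Dcaf6 are read in opposite directions from starts 797 bases apart, and their windows share 0 bases. The window of Mpc2 holds 1 CCAAT and no CRE core. The Dcaf6 window holds 1 CCAAT and 2 CRE cores, and that of Mpzl1 holds 2 CCAAT and no CRE core. Over 32536 promoter windows of the same length, searched on both strands, 33.8% held CCAAT, 17.9% a CRE core (which the full element contains) and 1.56% the full CRE, TGACGTCA. Among the 9 neighbors with a promoter in the table, the full CRE occurred in 1, Tiprl. A match is only a run of letters and does not show binding.

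The neighbors spanned a wide range of levels. Cd247 averaged 209 ± 10.7 FPKM over the 12 libraries (SD, n = 12), Mpc2 43.6 ± 4.11, Rcsd1 23.5 ± 9.37, Sft2d2 11.6 ± 2.83, Tiprl 10.9 ± 0.387, Creg1 10.0 ± 0.648, Dcaf6 3.69 ± 0.449, Pou2f1 1.47 ± 0.218 and Mpzl1 1.18 ± 0.270 FPKM. The ranges of mean ± SD overlapped between Rcsd1 and Sft2d2, Sft2d2 and Tiprl, Tiprl and Creg1, and Pou2f1 and Mpzl1, so those pairs have no clear order. Gpr161, a receptor of primary cilia that restrains hedgehog signaling through cAMP, was listed at 0 in 9 of 12 libraries. Its other values were 0.0207 FPKM in Adcy10-/- baseline replicate 2, and 0.0555 and 0.0198 FPKM in WT cytokine replicates 1 and 2. All values of the neighbors are in the plot of FPKM by library.

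**Figure D1:**
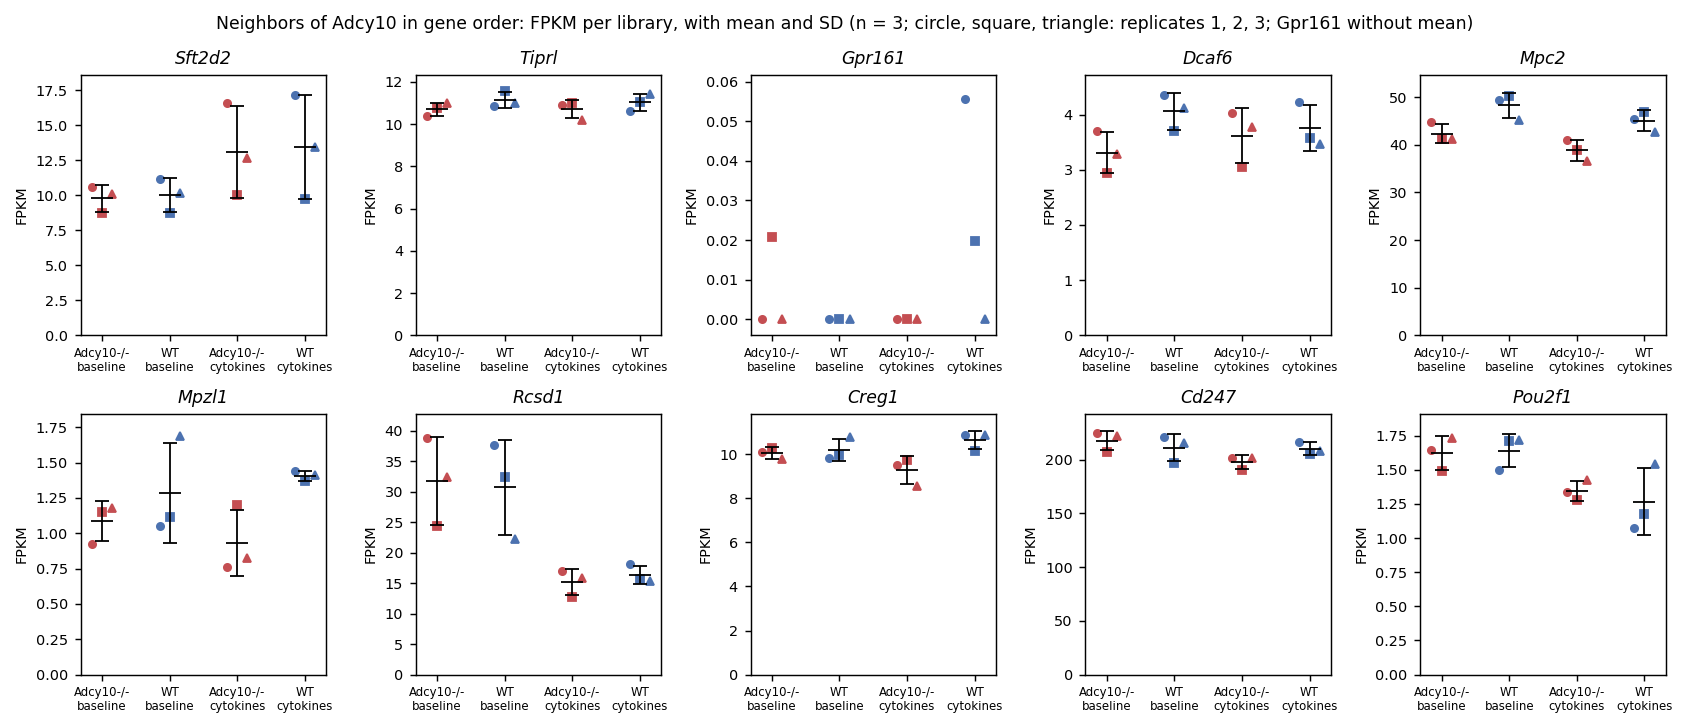
FPKM of each neighbor (y axis, linear, from 0) in the 12 libraries, by group along the x axis, with panels in gene order (Adcy10 lies between Mpc2 and Mpzl1). Red marks Adcy10-/- and blue WT, bars are mean and SD over 3 libraries, and Gpr161 has no mean because most values are 0; the red points of Mpc2 lie below the blue ones in both media.

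No neighbor passed the test between genotypes in either medium. The share of all 10126 tested genes called by limma at adjusted p under 0.05 was 0% at baseline, 0% with cytokines and 0% over the average of the media. At an unadjusted p under 0.05 there were 2 of 9 tested neighbors at baseline (Mpc2 and Dcaf6), against 1.17% of all tested genes. With cytokines there were 3 (Mpc2, Mpzl1 and Creg1), against 1.99%, and in the average 3 (Mpc2, Mpzl1 and Creg1), against 1.78%. The log2 change was below 0 in 7 of 9 neighbors at baseline and 8 of 9 with cytokines, where 52.5% and 57% of all tested genes lay below 0. The median change of the neighbors was -0.03 at baseline and -0.09 with cytokines, beside -0.0042 and -0.012 over all tested genes.

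Mpc2, which pairs with Mpc1 to form the carrier of pyruvate into mitochondria, had the steadiest difference. At baseline it stood at 44.7, 41.2 and 41.2 FPKM in Adcy10-/- libraries, against 49.4, 50.2 and 45.3 FPKM in WT libraries. With cytokines it stood at 41.0, 39.0 and 36.5 FPKM in Adcy10-/- libraries, against 45.4, 47.0 and 42.7 FPKM in WT libraries. All Adcy10-/- libraries lay below all WT libraries of their medium, in both media, as in 19 of the 10126 tested genes (0.188%). The mean was 42.4 ± 2.03 FPKM in Adcy10-/- and 48.3 ± 2.65 FPKM in WT cells at baseline, a difference of -12.3% (SD, n = 3 each). With cytokines the means were 38.9 ± 2.25 FPKM in Adcy10-/- and 45.04 ± 2.16 FPKM in WT cells, a difference of -13.7%. On the log2(FPKM + 1) scale, the average difference was -0.20 (SE 0.04, 95% interval -0.29 to -0.10). Its unadjusted p of 0.000944 was the tenth smallest of all tested genes, and the adjusted p from limma was 0.956. The adjusted p in each medium alone was 1.00 by limma, with differences of -0.18 at baseline and -0.21 with cytokines.

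Mpzl1, a cell surface protein that binds the phosphatase SHP2, lies on the other side of Adcy10 and was near 1 FPKM, where the log2(FPKM + 1) scale understates changes. At baseline it measured 0.926, 1.154 and 1.18 FPKM in Adcy10-/- libraries, against 1.05, 1.11 and 1.69 FPKM in WT libraries. With cytokines it measured 0.763, 1.20 and 0.826 FPKM in Adcy10-/- libraries, against 1.44, 1.37 and 1.41 FPKM in WT libraries. The genotypes overlapped at baseline, whereas with cytokines all 3 Adcy10-/- libraries were below the WT ones. The log2 difference was -0.33 (SE 0.12) with cytokines and -0.12 at baseline, each at an adjusted p of 1.00 by limma.

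Creg1, a secreted glycoprotein found in lysosomes, followed the same layout. It stood at 9.54, 9.77 and 8.58 FPKM in Adcy10-/- and 10.9, 10.2 and 10.9 FPKM in WT libraries with cytokines, which did not overlap. At baseline the values were 10.1, 10.3 and 9.78 FPKM in Adcy10-/- and 9.85, 9.95 and 10.8 FPKM in WT libraries, which did. The log2 difference was -0.18 with cytokines (95% interval -0.31 to -0.04) and -0.02 at baseline (limma adjusted p = 1.00 in each).

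Dcaf6, a substrate receptor of the CUL4-DDB1 ubiquitin ligase, separated only at baseline. There it stood at 3.70, 2.95 and 3.29 FPKM in Adcy10-/- libraries, against 4.36, 3.71 and 4.11 FPKM in WT libraries. The margin was narrow, between 3.70 FPKM in the highest Adcy10-/- and 3.71 FPKM in the lowest WT library. With cytokines the ranges overlapped, at 4.03, 3.06 and 3.77 FPKM in Adcy10-/- and 4.23, 3.57 and 3.46 FPKM in WT libraries. The log2 difference was -0.23 at baseline and -0.04 with cytokines (limma adjusted p = 1.00 in each). The difference between those values was itself not called (interaction 0.19, limma adjusted p = 1.00).

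Cd247, the signaling chain of the T cell receptor, was the most abundant neighbor. At baseline it stood at 225, 207 and 222 FPKM in Adcy10-/- libraries, against 221, 197 and 216 FPKM in WT libraries. With cytokines it stood at 202, 190 and 202 FPKM in Adcy10-/- libraries, against 217, 205 and 209 FPKM in WT libraries. The genotypes overlapped at baseline and did not with cytokines, where the Adcy10-/- libraries were lower. The log2 difference was 0.05 at baseline and -0.09 with cytokines (limma adjusted p = 1.00 in each). Its annotation overlaps that of Pou2f1, and that of Tiprl overlaps Gpr161. Whether reads were counted by strand is not given in the sources used here, so reads in those overlaps cannot be assigned with certainty.

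With cytokines, Mpc2, Mpzl1, Creg1 and Cd247 thus had all Adcy10-/- libraries below all WT ones, 4 of 9 tested neighbors, against 3.4% of all tested genes. At baseline this held for Mpc2 and Dcaf6, 2 of 9, against 2.42%. Only Mpc2 was in both sets.

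Pou2f1 (Oct1), a transcription factor of octamer motifs, Tiprl, which in human cells binds catalytic subunits of PP2A-type phosphatases, Sft2d2, whose yeast relative acts in Golgi traffic, and Rcsd1, whose human protein binds the actin capping protein, overlapped between genotypes in both media. Their log2 differences were -0.05 to 0.06 at baseline and -0.11 to 0.06 with cytokines. Precision varied among them. For Tiprl the 95% interval of the average difference was -0.13 to 0.04, which is narrow, whereas for Sft2d2 it was -0.33 to 0.27 and for Rcsd1 -0.33 to 0.28. The plot of genotype differences shows these intervals.

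**Figure D2:**
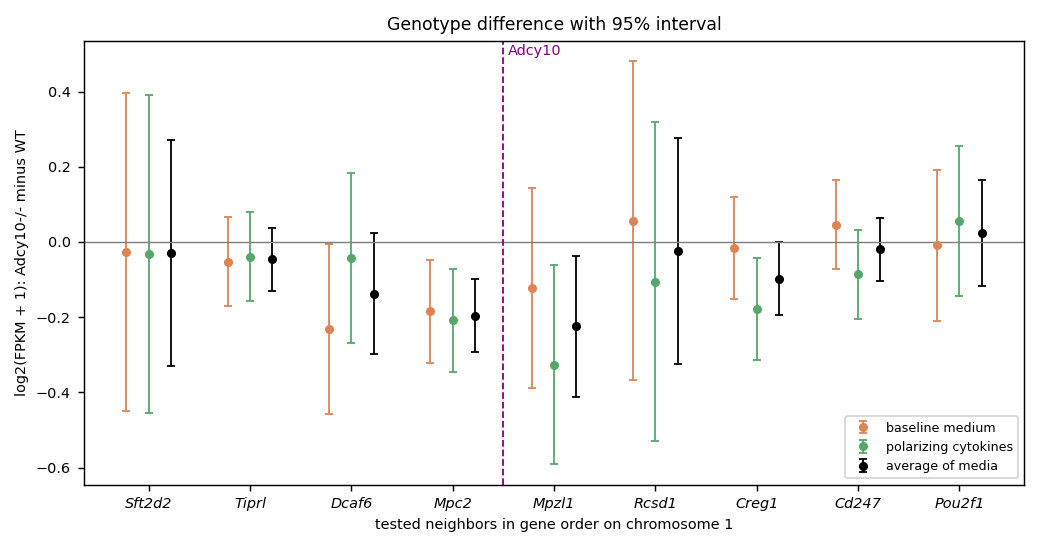
Genotype difference (Adcy10-/- minus WT, log2(FPKM + 1), y axis) of the 9 tested neighbors in gene order, at baseline, with cytokines and averaged, as the limma estimate with its 95% interval. The intervals of Mpc2 lie below 0 in both media and on average, while those of Sft2d2 and Rcsd1 are the widest.

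The view was then widened along the chromosome. Of the 10126 tested genes, 9528 were placed by symbol in the RefSeq order, 527 of them on chromosome 1 (5.53%). In the average of media, 18 of the 20 nearest tested genes (10 on each side) had a log2 change below 0, with a median of -0.05, and 4 (20%) had an unadjusted p under 0.05. Of the 50 nearest, 36 lay below 0 and 6 (12%) had such a p. Beyond the 20 nearest, the genes with such a p were Fcgr2b (-0.55) and Fcer1g (-0.52). The part of the mostly lower myeloid marker sums of Adcy10-/- cultures in these values was not tested. For the whole chromosome the numbers were 317 of 527 below 0 and 19 (3.61%) with such a p, and for all tested genes 5691 of 10126 below 0 (56.2%) and 180 (1.78%). No gene in any of these windows was called by limma at adjusted p under 0.05. The 20 nearest include the 9 tested neighbors, so the windows are nested and do not stand apart from each other. Short lists leaned to either side too. Of the 10 genes that every cell uses, 8 lay below 0 on average (median -0.05). Of the 6 CD4 T cell markers, 0 did (median 0.05).

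Beyond the 10 neighbors, the nearest genes with the smallest p-values in a genotype comparison were Tmco1, Xcl1, Blzf1, Pogk, Atp1b1 and Nme7. Tmco1, a membrane protein of the endoplasmic reticulum, stood at 7.91, 7.67 and 7.56 FPKM in Adcy10-/- libraries, against 8.04, 8.42 and 8.86 FPKM in WT libraries at baseline. With cytokines it stood at 7.64, 8.63 and 7.21 FPKM in Adcy10-/- and 8.18, 8.62 and 8.64 FPKM in WT libraries. The genotypes were apart at baseline and overlapped with cytokines, and the average log2 difference was -0.11 (limma adjusted p = 1.00). For the chemokine gene Xcl1 the average difference was -0.29 (SE 0.15), and for the other 4 it was between -0.16 (Atp1b1) and -0.05 (Nme7), none of them called.

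**Figure D3:**
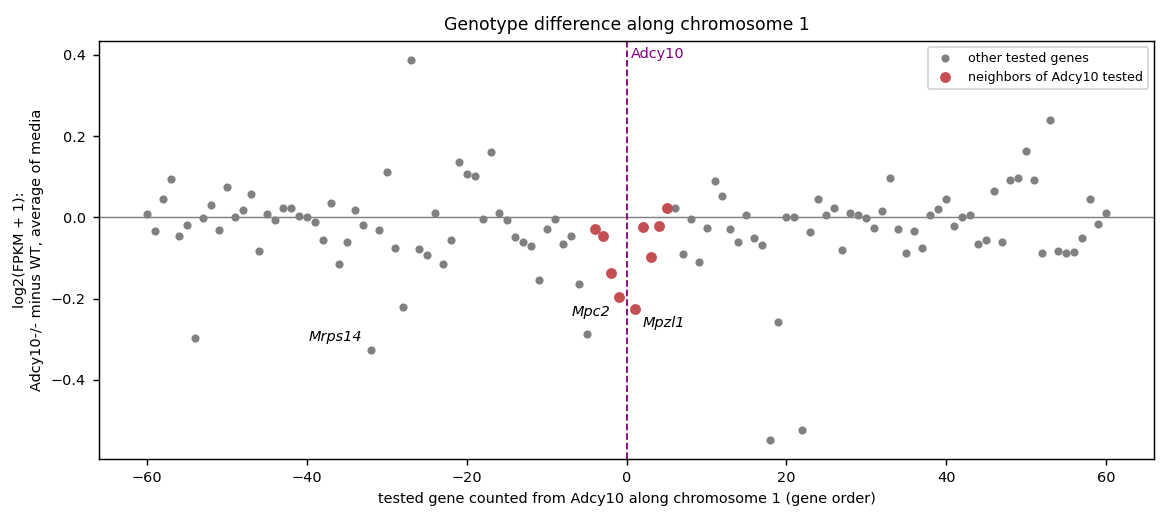
Average genotype difference (Adcy10-/- minus WT, log2(FPKM + 1), y axis) of tested genes on chromosome 1, by their place in gene order from Adcy10 (x axis, 0 at the dashed line, 60 genes to each side). Red points are the 9 tested neighbors; Mpc2 at -0.20 and Mpzl1 at -0.22 flank Adcy10, and Mrps14 at -0.33 lies farther out.

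Mpc2 and Mrps14 were among the 10 genes with the smallest p-values of the average genotype comparison. Mrps14 was chosen after its values were seen. It is the 32nd tested gene from Adcy10 on the side of Mpc2, outside the 50 nearest, and encodes a protein of the small mitochondrial ribosome subunit. At baseline it stood at 21.9, 19.8 and 18.8 FPKM in Adcy10-/- libraries, against 24.5, 24.0 and 23.6 FPKM in WT libraries, and with cytokines at 19.2, 20.8 and 17.5 FPKM in Adcy10-/- and 26.7, 25.7 and 24.6 FPKM in WT libraries. The genotypes did not overlap in either medium, with mean differences of -16.1% and -25.4%. The average log2 difference was -0.33 (SE 0.05), at an adjusted p of 0.133 by limma. In all, 28 genes (0.277%) were apart between genotypes in the same direction in both media. Of these, 6 were on chromosome 1, 5 on chromosome 17 and 4 on chromosome 7, and 2 were not placed. The 6 include Mpc2 and Mrps14, but they were neither all close to Adcy10 nor all lower in Adcy10-/- cells. Scg2 (higher) and Dnajb2 (lower) lie at -215 and -223 in the order of tested genes from Adcy10. Fcer1g, also among the 6, is itself a gene of myeloid cells.

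**Figure D4:**
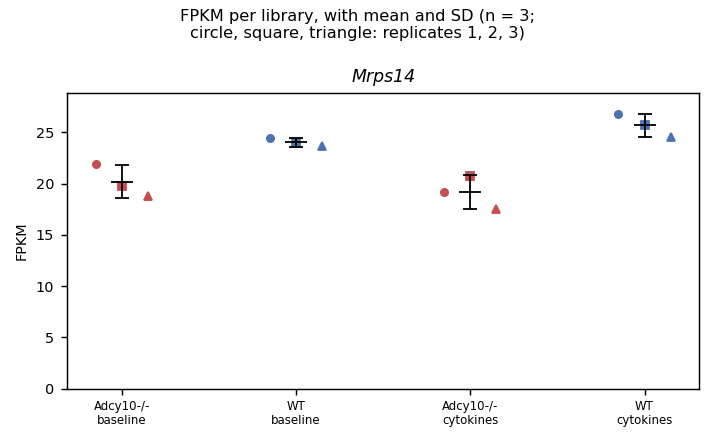
FPKM (y axis, linear, from 0) of Mrps14 in the 12 libraries by group (x axis), with mean and SD over 3 libraries. Red Adcy10-/- points lie below blue WT points in both media.

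Between the media, limma called 1 neighbor in the fit that left out the replicate number. Rcsd1 stood at 16.9, 12.7 and 15.8 FPKM with cytokines, against 38.7, 24.3 and 32.3 FPKM at baseline in Adcy10-/- cells. In WT cells it stood at 18.1, 15.6 and 15.3 FPKM with cytokines, against 37.6, 32.4 and 22.2 FPKM at baseline. The media did not overlap in either genotype, as in 5.73% of all tested genes that were lower with cytokines in both. Mean Rcsd1 with cytokines was 0.477 times that at baseline in Adcy10-/- cells and 0.532 times in WT cells. Rcsd1 fell by 1.01 on the log2 scale in Adcy10-/- cells (SE 0.19, limma adjusted p = 0.0142) and by 0.84 in WT cells (SE 0.19, limma adjusted p = 0.0297). It was the sole called neighbor of 9 in each genotype, where limma called 4.27% of all tested genes in Adcy10-/- cells (2.12% lower) and 4.93% in WT cells (2.28% lower). The call was lost in Adcy10-/- cells without Adcy10-/- baseline replicate 1 (adjusted p 0.0608 by limma), baseline replicate 3 (0.0577) or cytokine replicate 2 (0.0563). In WT cells it was lost without WT baseline replicate 1 (limma adjusted p 0.0877) or 2 (0.131), or cytokine replicate 1 (0.061), 2 (0.094) or 3 (0.0862).

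Sft2d2 and Cd247 were called only when the replicate number, which the libraries shared across media, entered the model as a block. Sft2d2 stood at 16.6, 10.0 and 12.7 FPKM with cytokines, against 10.6, 8.72 and 10.1 FPKM at baseline in Adcy10-/- cells. In WT cells it stood at 17.2, 9.77 and 13.5 FPKM with cytokines, against 11.2, 8.74 and 10.2 FPKM at baseline. In all 4 groups replicate 1 was highest and replicate 2 lowest, and within each number the cytokine value was above the baseline value. The log2 change was 0.36 in Adcy10-/- cells (limma adjusted p = 0.437, with the block 0.0272) and 0.37 in WT cells (limma adjusted p = 0.346, with the block 0.0229). For Cd247 the change in Adcy10-/- cells was -0.14 (limma adjusted p = 0.234, with the block 0.0226), and all 3 cytokine libraries lay below all baseline ones. In WT cells its change was -0.0049 (limma adjusted p = 0.978), and the media overlapped. With the block, Rcsd1 was at an adjusted p of 0.00213 in Adcy10-/- cells and 0.00477 in WT cells by limma.

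The other 6 tested neighbors were not called, with or without the block. Pou2f1 stood at 1.34, 1.28 and 1.42 FPKM with cytokines, against 1.64, 1.49 and 1.74 FPKM at baseline in Adcy10-/- cells, without overlap. In WT cells it stood at 1.07, 1.18 and 1.54 FPKM with cytokines, against 1.498, 1.71 and 1.72 FPKM at baseline, where WT cytokine replicate 3 reached into the baseline range. Its log2 changes were -0.16 in Adcy10-/- cells (limma adjusted p = 0.476) and -0.23 in WT cells (limma adjusted p = 0.200). The log2 change of Mpc2 was -0.12 in Adcy10-/- and -0.10 in WT cells, neither of them called. Tiprl was the flattest neighbor, with 10.2 to 11.6 FPKM over all 12 libraries. In Adcy10-/- cells, all cytokine libraries lay below all baseline libraries for 5 of 9 neighbors (Rcsd1, Cd247, Pou2f1, Creg1 and Mpc2), as for 12.3% of all tested genes. In WT cells this held for 1 (Rcsd1), as for 10.3%. The margin in Adcy10-/- cells was narrow for Creg1 and Mpc2. Their highest cytokine values were 9.77 and 41.03 FPKM, and their lowest baseline values 9.78 and 41.16 FPKM. The difference between the cytokine effects of the genotypes was between -0.20 (Mpzl1) and 0.19 (Dcaf6) for the 9 neighbors, with adjusted p = 1.00 by limma. This interaction was called for 0% of all tested genes by limma, and 1.11% of them had an unadjusted p under 0.05.

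**Figure D5:**
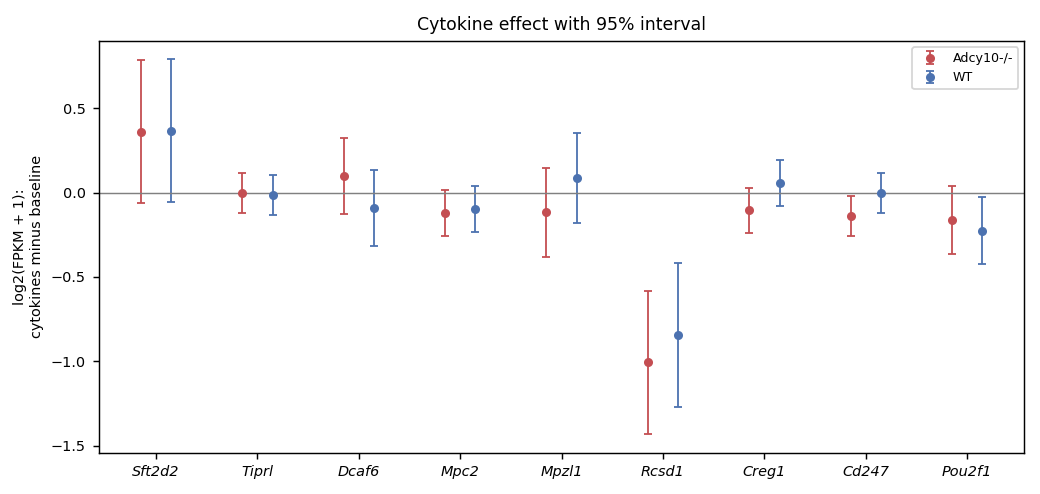
Cytokine effect (cytokines minus baseline, log2(FPKM + 1), y axis) of the 9 tested neighbors (x axis) in Adcy10-/- (red) and WT (blue) cells, as the limma estimate with its 95% interval. Rcsd1 lies at -1.01 and -0.84, below every other neighbor, and the intervals of both genotypes overlap for each gene.

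Another gene close to Adcy10 was called for the cytokine effect, with a larger log2 change than Rcsd1. Xcl1, which encodes the chemokine lymphotactin, is the fifth tested gene on the side of Mpc2. It stood at 9.18, 13.6 and 15.9 FPKM with cytokines, against 31.1, 27.5 and 32.3 FPKM at baseline in Adcy10-/- cells, without overlap. In WT cells it stood at 12.2, 20.5 and 17.4 FPKM with cytokines, against 29.5, 46.0 and 32.7 FPKM at baseline, also without overlap. Xcl1 fell by 1.20 on the log2 scale in Adcy10-/- cells (limma adjusted p = 0.0104) and by 1.07 in WT cells (limma adjusted p = 0.0172). The WT call was lost without WT baseline replicate 2 (limma adjusted p 0.0851) or WT cytokine replicate 1 (0.0655). Rcsd1 and Xcl1 were the called genes among the 20 nearest, both lower with cytokines.

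The neighbors did not vary as 1 unit over the 12 libraries. Among pairs of neighbors, Pearson's r of log2(FPKM + 1) was highest between Mpzl1 and Creg1, at 0.79, and lowest between Sft2d2 and Pou2f1, at -0.52. Mpc2 and Dcaf6, with the divergent starts shown above, had an r of 0.47. The 12 libraries share media, genotypes and replicate numbers, so these values are descriptions. Over all tested genes, the patterns most like that of Mpc2 were those of Ehd3 (r = 0.90) and Mid1 (r = 0.89), which are on chromosomes 17 and X. Like Mpc2, both were among the 10 smallest p-values of the average genotype comparison. All Adcy10-/- libraries lay below all WT ones in both media for Ehd3 and Mid1 too, so these r values include the genotype difference. For Mpzl1 the most similar genes were Slc45a4 (0.87) and Cd82 (0.85), for Creg1 Nt5c2 (0.85) and Nit2 (0.82), and for Dcaf6 Daam1 (0.85) and Zfp169 (0.84). Sft2d2 was most like Ski (0.96) and Fam101b (0.95), and Tiprl most like Sarnp (0.83) and Exosc3 (0.83). Rcsd1 was most like Ptger4 (0.98) and Lsp1 (0.98), Pou2f1 like Atm (0.95) and Rel (0.94), and Cd247 like Itprip (0.87) and H2-D1 (0.85).

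Genes that work with the neighbors were also read from the same tables, in 10 lists with 69 tested genes. Between genotypes, none of the 69 was called by limma, and none had an unadjusted p under 0.05, at baseline, with cytokines or on average. Of 11 genes for entry of pyruvate into mitochondrial metabolism, 10 lay below 0 on average, where 56.2% of all tested genes did, with a median log2 difference of -0.04. Mpc1, the partner of Mpc2 in the carrier, was at -0.08 (95% interval -0.17 to 0.02), less than Mpc2 at -0.20, and that gap was not tested. The 12 T cell receptor and proximal kinase genes had a median of 0.02 (3 below 0). It was 0.0045 (4 below 0) for the 10 genes of the CUL4-DDB1 ligase and -0.03 (7 below 0) for the 10 lysosomal genes. The 7 PP2A-type phosphatase genes had a median of -0.03 (6 below 0), and the 5 octamer factor genes -0.0014 (3 below 0). The 3 actin capping protein genes had a median of -0.02 (3 below 0), and the 2 SFT2 genes 0.05 (0 below 0). For the 2 SHP2 genes it was -0.01 (2 below 0), and for the 7 ciliary hedgehog and PKA genes -0.02 (4 below 0).

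With cytokines against baseline, limma called 4 of the 69 in Adcy10-/- cells and 3 in WT cells, close to the 4.27% and 4.93% of all tested genes, so the count is no result about these lists. Ctsb, the lysosomal protease cathepsin B, rose by 0.48 on the log2 scale in Adcy10-/- cells (limma adjusted p = 0.000612) and by 0.53 in WT cells (limma adjusted p = 0.000391). Lamp2, a protein of the lysosomal membrane, rose by 0.63 in Adcy10-/- cells (limma adjusted p = 0.0253) and by 0.51 in WT cells (limma adjusted p = 0.0572). Ctsd, cathepsin D, rose by 0.35 in WT cells (limma adjusted p = 0.0445) and by 0.17 in Adcy10-/- cells (limma adjusted p = 0.404). Cd4 fell by 0.40 in Adcy10-/- cells (limma adjusted p = 0.0261) and by 0.30 in WT cells (limma adjusted p = 0.0804). For none of them was the difference between these changes called. For Creg1 itself the log2 change was -0.11 in Adcy10-/- and 0.06 in WT cells, neither of them called. The Ctsb calls held with any single library left out. The calls of Lamp2, Ctsd and Cd4 were each lost with at least 1 single library left out, at adjusted p up to 0.104, 0.192 and 0.107 by limma.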

How the data were processed

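FPKM per gene were measured by RNA-seq in 12 libraries and deposited by the authors, 1 file per library. Per the submitters' processing notes, tools used were STAR 2.4.0f1, SAMtools 0.1.19, Cufflinks and HTSeq (no version given) with build mm9. FPKM carry no read counts, so depth is unknown and the spread between libraries is the measure of error. The 23991 gene IDs filled 24488 entries in every file, and the entries of 258 repeated IDs were added up.

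Values were analysed as log2(FPKM + 1) for the 10126 genes that reached 1 FPKM in 3 or more libraries. limma 3.58.1 in R 4.3.3 (data.table version 1.17.8) fitted 4 group means with a variance trend, and p-values were adjusted across the 10126 genes (Benjamini-Hochberg, threshold 0.05). The fit was tested on simulated data with noise drawn independently for each library. That test does not cover deviations shared by libraries of the same replicate number. Other computations used Python 3.11.15, numpy 2.4.6, pandas 2.3.3 and matplotlib 3.10.9. Gene order and promoters came from RefSeq GRCm38.p6, which is not the authors' build, so gene coordinates of the 2 builds were not mixed.

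The neighbors, the lists of partner genes and the markers were chosen with earlier results of these data known. Named were Adcy10, the neighbors, the 4 smallest p-values per genotype comparison among the other 20 nearest genes, called partner genes (up to 3 per list), and the 2 most similar genes per neighbor. Some genes under this rule are not reported here.

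Libraries with the same replicate number deviated together. Residuals correlated at 0.294 to 0.536 within genotype across media (6 pairs) and at 0.262 to 0.422 between genotypes with cytokines, but at 0.074 to 0.523 between genotypes at baseline. The block is therefore given beside the cytokine effects. Alternatives covered the pseudocount, filters, scaling, the block, the libraries in the fit, duplicate entries, the variance trend and each library left out.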

Additional observations from a re-analysis of the deposited data

How the results depend on the processing

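No neighbor was called in a genotype comparison, and none of the 20 nearest genes in the average of media, under any alternative run. The average log2 difference of Mpc2 was -0.22 to -0.18 over them, at limma adjusted p 0.0739 (with the replicate block) to 1.00. Every one of the 12 libraries had its best partner in another group at its own number, a hint from the data, although 1 baseline pair was at 0.074. With the block 3 genes were called on average: Mid1, Ehd3 and Mrps14 (limma adjusted p = 0.0163, and up to 0.567 over the alternatives). Mid1 was also called on average without Adcy10-/- baseline replicate 1. Snora75, on chromosome 1, was called with cytokines (4.66) and on average (2.59) without Adcy10-/- cytokine replicate 1. Mir703 was called in both without WT cytokine replicate 1. Without the number 1 libraries, Mid1 and Snora75 were called on average, and Snora75 and Mir703 with cytokines. The cause of these moves was not tested.

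For the cytokine effect in Adcy10-/- cells, 3 neighbors were called with the replicate block and 0 to 1 with a single library left out. In WT cells, 2 were called with the block, which changed no call of a neighbor outside the cytokine effects, and 0 without a filter on low values, 0 in the 6 libraries alone, 0 without the number 1 libraries and 0 to 1 with a single library left out. All genes called in Adcy10-/- cells were 432, but 1086 with the block, 219 without number 1 libraries and as few as 202 with a single library left out. In WT cells they were 499, but 1502 with the block, 276 in the 6 libraries alone and as few as 164 with a single library left out. The comparison in 6 libraries could not be made for the average or the interaction.

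Of 66 log2 changes recomputed, 49 kept 1 direction. Pou2f1 turned to 0.012 at baseline with quantile normalization, and without the number 1 libraries to -0.0028 with cytokines and -0.029 on average. Tiprl turned in its cytokine effect to 0.011 (median-ratio scaling) and 0.024 (quantile) in Adcy10-/- cells and 0.0020 (quantile) in WT cells. Without the number 1 libraries the WT cytokine effect of Cd247 was 0.0059 and the baseline genotype difference of Mpc1 0.0070. Leaving out single libraries gave baseline genotype differences of -0.20 to 0.00064 for Mpzl1, -0.038 to 0.022 for Creg1, -0.11 to 0.047 for Sft2d2, -0.0032 to 0.081 for Cd247, -0.049 to 0.027 for Pou2f1 and -0.15 to 0.23 for Rcsd1. With cytokines they were -0.11 to 0.048 for Dcaf6, -0.23 to 0.15 for Sft2d2, -0.0055 to 0.14 for Pou2f1 and -0.19 to 0.0064 for Rcsd1. On average they were -0.13 to 0.061 for Sft2d2, -0.0073 to 0.066 for Pou2f1 and -0.13 to 0.063 for Rcsd1. The cytokine effect of Tiprl was -0.023 to 0.029 in Adcy10-/- and -0.039 to 0.011 in WT cells, and that of Cd247 in WT cells -0.054 to 0.028. None of these was called in the main comparison, and 3 libraries per group without known depth limit what could be told apart.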
